A study of Saccharomyces cerevisiae with 50 samples.

Results

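The genes described here encode 60 factors that assemble the large (60S) ribosomal subunit of budding yeast, followed through 25 strains of the SK1 background. They were taken as the rows of both deposited tables whose gene name held 1 of 60 listed symbols, out of 6679 open reading frames. All 60 were found, 57 under the listed name and 3 under another name of the same gene (NSA3 as CIC1, REA1 as MDN1 and DRG1 as AFG2). By the stage at which their products act, 35 were grouped as early (nucleolar), 14 as middle (late nucleolar and nuclear) and 11 as late (export and cytoplasm).

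The series asked how shortage of large or small subunit proteins changes gene expression, with ribosome footprints and mRNA sequenced from the same strains. The 14 RPL strains were labelled with deletions of large subunit protein genes. Their single deletions were rpl7a, rpl24a, rpl24b, rpl26a, rpl26b, rpl38, rpl40a, rpl40b, rpl41a and rpl41b, and the double deletion was rpl26a rpl26b. The double heterozygotes, which keep a copy of each gene, were rpl7a/+ rpl7b/+, rpl26a/+ rpl26b/+ and rpl40a/+ rpl40b/+. The 9 RPS strains were labelled with deletions of small subunit protein genes. Their single deletions were rps0b, rps22a (strain numbers 4659 and 4662v), rps25b, rps28a, rps28b and rps29b. The double deletion was rps25a rps25b and the double heterozygote rps22a/+ rps22b/+. The wild type had 2 libraries per assay. All cultures grew in rich YEPD medium with 2% glucose at 30 °C and were collected in exponential growth at an OD600 of 0.6. Each deletion strain had 1 library per assay, so the spread below is between strains of a class, several of which share a gene family, and nothing in the labels tells if WT1 and WT2 were grown as separate cultures.

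Ribosome assembly in yeast begins in the nucleolus, where RNA helicases, scaffold proteins and methyltransferases fold and modify the precursor of the 25S and 5.8S rRNAs while ribosomal proteins join it. AAA ATPases and GTPases then strip early factors from the particle in the nucleoplasm, export adaptors carry it through the nuclear pore, and a last set of cytoplasmic factors removes the placeholders that keep the new subunit from translating too soon. Most of these genes belong to the ribosome biogenesis regulon, which yeast is known to express in step with growth.

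By role, the list held the DEAD-box RNA helicases (MAK5, DBP2, DBP3, DBP6, DBP7, DBP9, DBP10, DRS1, HAS1 and SPB4), the rRNA methyltransferases (NOP2, SPB1 and RRP8), the proteins of the Nop7 subcomplex (NOP7, ERB1 and YTM1) and Noc proteins (MAK21, NOC2 and NOC3). The Brix family of rRNA-binding proteins was present as BRX1, RPF1, RPF2, SSF1 and SSF2. The GTPases were NOG1, NOG2, NUG1 and LSG1, the AAA ATPases RIX7, REA1 and DRG1, and the chaperones of single ribosomal proteins RRB1 and SQT1. Export and cytoplasmic release were represented by ARX1, ALB1, REI1, JJJ1, NMD3, SDO1, TIF6 and MRT4. The remaining members were nucleolar and nuclear proteins of assorted function: NOP4, NOP8, NOP12, NOP13, NOP15, NOP16, RRP1, RRP14, RRP15, RRS1, EBP2, MAK16, NSA1, NSA2, NSA3, RSA3, RSA4, RIX1 and SDA1.

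The mRNA libraries held 961526 to 3505952 assigned reads and the footprint libraries 4101712 to 8571411. The median mRNA depth was 1999448 reads in RPL strains, 1241153 in RPS strains and 1448527 in wild type, and the part of depth in the class differences was not tested. Apart from rps22a (4662v), deleted genes were at 0 to 3.05% of their mRNA level in strains of other families (20 strain and gene pairs). In footprints they were at 0.358 to 2.79% (18 pairs, RPL41A and RPL41B having no footprint reads to compare). In 3 strains, libraries went against the labels in some or all of the genes that the label names. The strain labelled rps22a (4662v) held RPS22A mRNA at 93.4% and RPS22B mRNA at 24.3% of other families. The footprint library labelled rpl26a/+ rpl26b/+ held RPL26A at 99.9%, RPL26B at 101% and RPS0A at 1.01%, while the mRNA library of that label held them at 53.1%, 51.2% and 94.5%. The strain labelled rpl40a/+ rpl40b/+ held RPL40A at 96.4% in mRNA and 79.3% in footprints, and RPL40B at 55.3% and 45.4%. Only RPL40A departed from this label, and whether the strain differs from its label was not tested. The strain rps25a rps25b matched its label, with RPS25A mRNA at 0.735% and RPS25B mRNA at 1.11%, but stood apart from the other RPS strains in the genes described here. The results below are given with all 25 strains and, where they differ, without the 3 strains that went against their labels. Values without rps25a rps25b are given as a description, since that strain was picked for its low level of these same factors.

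The factor genes had middle to high mRNA levels and all 60 passed the minimum of a mean of 10 RPKM (reads scaled to coding length and library total) in both assays. Their mean mRNA level over the 25 strains ran from 41.9 RPKM for JJJ1, a J-protein that works with Rei1 in the cytoplasm, to 392 RPKM for TIF6, the factor that keeps the 2 ribosomal subunits apart until the last step. The median was 137 RPKM, against 53.2 RPKM over all 5096 genes tested, and 58 of the 60 were above that level. Footprint levels ran from 16.9 RPKM for REA1, the giant dynein-like ATPase that removes assembly factors, to 414 RPKM for NOP15, an RNA-binding protein of early particles. The footprint median of the 60 was 157 RPKM, against 53.3 RPKM over all 4220 genes tested, and 51 were above that level. The early stage ran from SSF2 (45.1 RPKM of mRNA) to DBP2 (288.5 RPKM), a helicase that also acts on mRNA. The middle stage ran from the helicase SPB4 (71.8 RPKM) to the GTPase NOG1 (331 RPKM).

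Translational efficiency, the footprint RPKM divided by the mRNA RPKM of the same strain, had a median of 0.989 over the 60 genes and 0.876 over the 4197 genes tested. It was highest for RRS1 (2.04), which helps to place the 5S ribonucleoprotein, RSA3 (1.92), a nucleolar partner of the helicase Dbp6, and NOP15 (1.84). It was lowest for REA1 (0.126), NOG1 (0.487) and JJJ1 (0.548). By stage, the median efficiency was 1.12 for early, 0.85 for middle and 0.994 for late factors. Efficiency was lower for longer coding sequences among the 60 (Spearman rho of -0.74 across genes, and -0.73 without REA1, whose coding sequence has 14733 nt) and among the 4137 other genes (-0.71). Genes share their libraries, so these are descriptions. The coding length divides both RPKM values and cancels in their ratio. Within a band of coding length the factors had more footprints per mRNA than other genes. The median was 1.60 for 13 factors and 1.41 for 1524 other genes under 900 nt, 1.12 for 26 factors and 0.793 for 1619 other genes of 900 to 1800 nt, and 0.76 for 21 factors and 0.496 for 994 other genes of 1800 nt and over. These differences between gene sets were not tested.

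**Figure D1:**
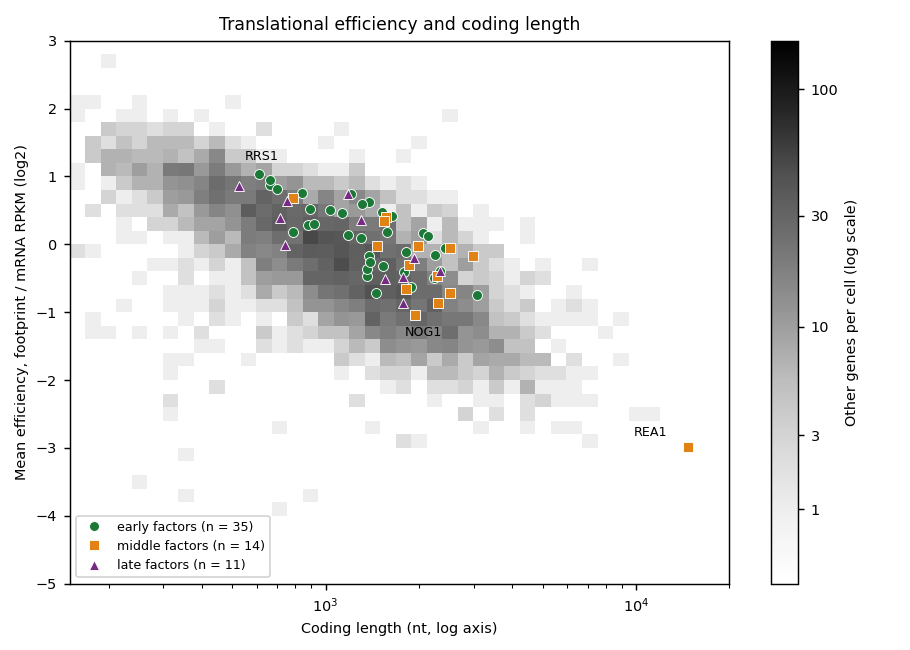
Mean translational efficiency over 25 strains (log2 of footprint over mRNA RPKM, vertical) against coding length in nt (horizontal, log axis) for the early, middle and late factors (points) and for all other genes tested (grey cells, shaded by the number of genes). Efficiency falls with length from RRS1 at 2.04 to REA1 at 0.126.

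The strains differed in the level of the list as a whole. Levels were set against the mean of the 25 strains on the log2(RPKM + 1) scale, and the median of the 60 differences was taken in each strain. Because each library is a bulk culture scaled to its own total, less RNA per cell and fewer cells expressing a gene cannot be told apart. The lowest strain was rps25a rps25b, with a median of -0.54 for mRNA and -0.67 for footprints, and 59 of the 60 genes were below their 25-strain mean in mRNA and all 60 in footprints. Next, by mRNA, came rpl41a (-0.43 for mRNA and -0.58 for footprints), rpl41b (-0.25 and -0.35), rpl40a/+ rpl40b/+ (-0.25 and -0.24) and rps28a (-0.19 and -0.19). The highest strains by mRNA were rps0b (0.37 for mRNA and 0.46 for footprints, with 58 and 60 genes above their mean), rps22a/+ rps22b/+ (0.33 and 0.48), rps28b (0.27 and 0.24), rps22a (4659) (0.26 and 0.27) and rps29b (0.23 and 0.21). In strains near 0 the genes were split, with 30 below and 30 above their mean mRNA level in rpl40a, for instance. The extremes of both signs were RPS strains, the 2 RPL41 deletions were both low, and the deletions of the paralogues RPS28A and RPS28B lay on opposite sides.

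By class, the strain medians for mRNA ran from -0.43 to 0.17 in the 14 RPL strains (median -0.02), from -0.54 to 0.37 in the 9 RPS strains (median 0.23), and were -0.08 and 0.06 in the wild-type libraries. For footprints they ran from -0.58 to 0.23 in RPL strains (median 0.04), from -0.67 to 0.48 in RPS strains (median 0.21), and were -0.12 and -0.03 in wild type. The classes overlapped in both assays. The median over all genes tested stayed between -0.11 and 0.12 for mRNA and between -0.15 and 0.14 for footprints in every strain. Scaling each library to its total tends to hold this median steady, so it does not show whether the factors moved further than other genes. The wild-type libraries differed from each other by a median of 0.15 for mRNA and 0.12 for footprints over the 60 genes, WT1 being higher for 49 and 45 of them. In the strain labelled rpl26a/+ rpl26b/+ the medians of the 2 assays parted, with 0.01 for mRNA and 0.23 for footprints. Its libraries also differed in RPL26A, RPL26B and RPS0A, as given above. Single genes varied between strains with a median SD of 0.25 (log2) for mRNA and 0.30 for footprints. Other genes in the same range of levels had a median SD of 0.20 (2546 genes) and 0.22 (3067 genes).

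**Figure D2:**
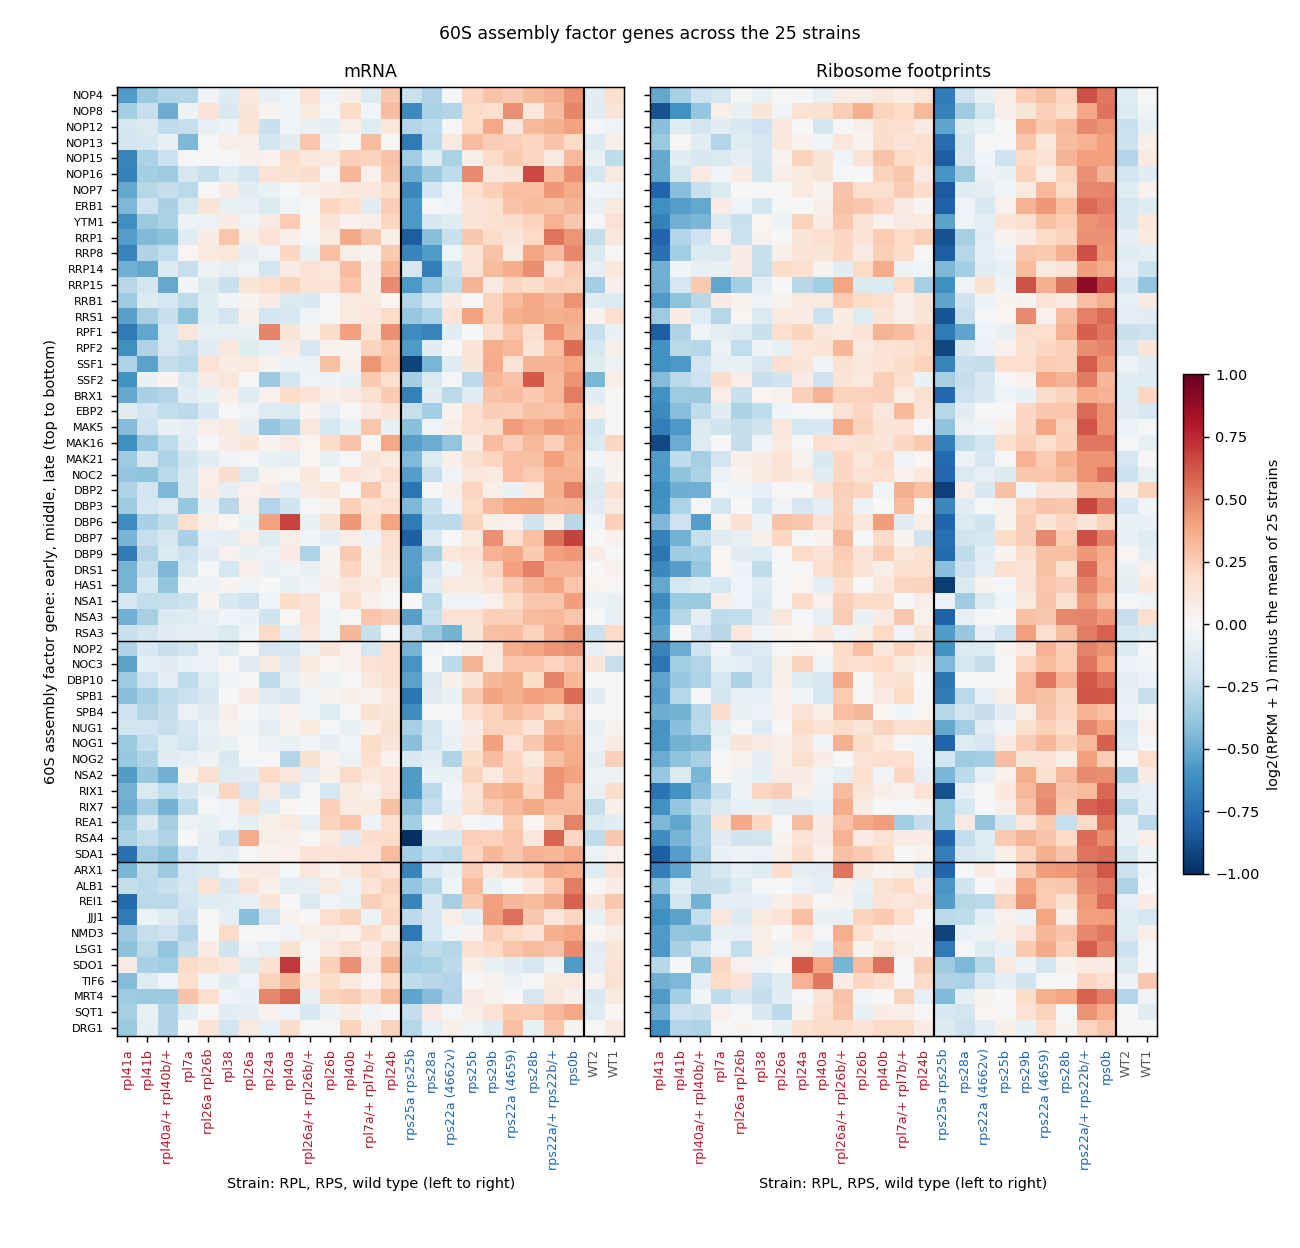
Each of the 60 genes (rows, ordered early, middle, late) in each of the 25 strains (columns: 14 RPL, 9 RPS, 2 wild type, each class sorted by its median), as log2(RPKM + 1) minus the mean of the 25 strains, for mRNA (left) and footprints (right). Whole columns share a colour: rps25a rps25b and rpl41a are blue (lower) and rps0b and rps22a/+ rps22b/+ are red (higher), while SDO1, DBP6, MRT4 and RRP15 break the pattern in some strains.

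Early, middle and late factors moved together in nearly every strain. For mRNA, the early median minus the late median lay between -0.09 and 0.08 in the 14 RPL strains and was -0.08 and -0.03 in wild type. In the RPS strains it ran from -0.20 in rps25a rps25b to 0.16 in rps28b. For footprints the same difference lay between -0.09 and 0.09 in RPL strains and between -0.27 (rps25a rps25b) and 0.10 (rps28b) in RPS strains. Thus in rps25a rps25b the early factors stood lower than the late ones (-0.54 and -0.34 for mRNA, -0.71 and -0.44 for footprints), and in rps28b they stood higher (0.30 and 0.14 for mRNA). These medians carry no test.

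**Figure D3:**
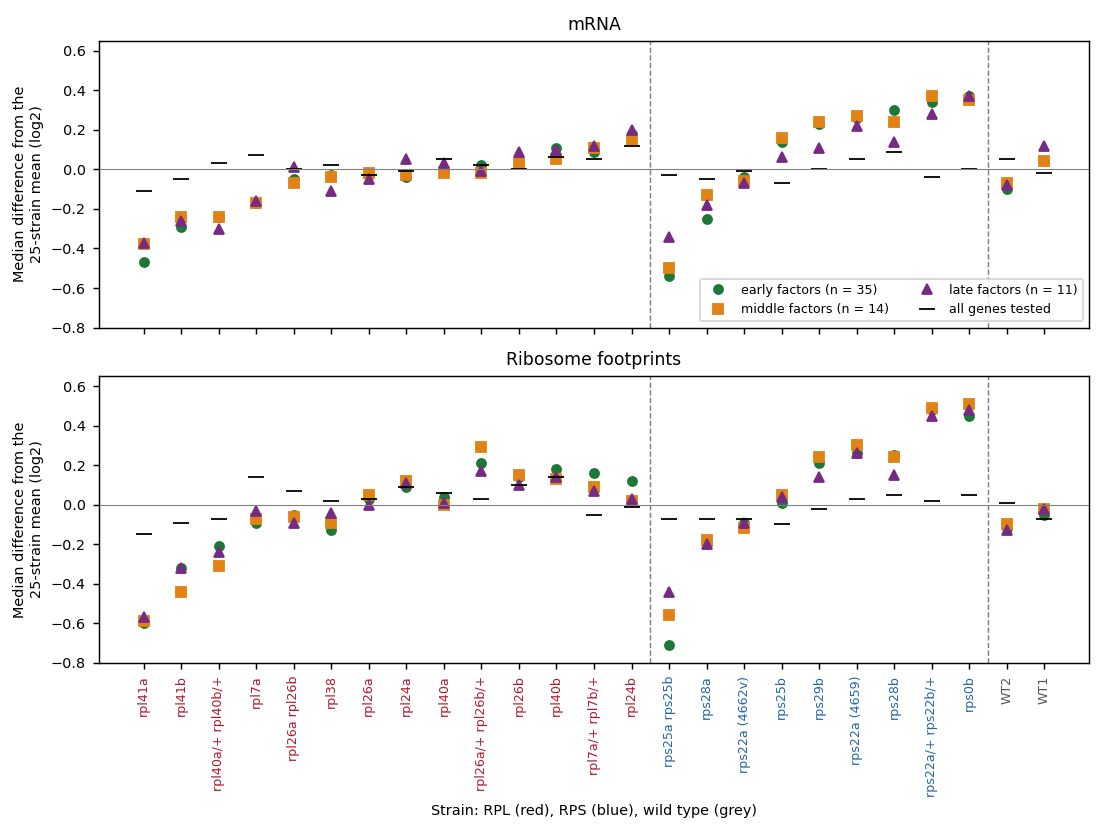
Median difference from the 25-strain mean (log2, vertical) of early, middle and late factors in each strain (horizontal), with the median of all genes tested as a dash, for mRNA (top) and footprints (bottom). The 3 stages lie close together in most strains and part most in rps25a rps25b, where the early factors are lowest.

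The comparison of RPL with RPS strains asks whether shortage of the subunit that these factors build differs from shortage of the other subunit. In mRNA, the genes leaned towards lower levels in RPL strains: the difference (RPL minus RPS, mean log2(RPKM + 1)) had a median of -0.15 and was below 0 for 54 of the 60 genes, against a median of 0.02 and 44.6% below 0 over all 5096 genes tested. In limma with Benjamini-Hochberg adjustment over all genes, 2 of the 60 passed an adjusted p of 0.05, SQT1 lower and SDO1 higher. Over all genes 9.67% passed, 2.9% lower and 6.77% higher in RPL strains. At an unadjusted p under 0.05 there were 16 of the 60, 15 of them lower, where 25.8% of all genes reached it. By stage the median was -0.16 for early, -0.17 for middle and -0.08 for late factors, with 32 of 35, 14 of 14 and 8 of 11 genes below 0. Since the factors largely moved together within a strain, counts of genes below or above 0, here and further on, are not of independent observations.

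SQT1 (YIR012W), the dedicated chaperone of ribosomal protein Rpl10, had 137, 165.5 and 182 RPKM of mRNA as the lowest, median and highest of the RPL strains, against 146, 191 and 226 RPKM in RPS strains and 158 and 175 RPKM in wild type. All 14 RPL strains lay below the RPS median, although the ranges overlapped through rps25a rps25b, rps22a (4662v) and rps25b, the lowest RPS strains. The difference was -0.22 ± 0.07 (SE; limma, adjusted p = 0.0293), and -0.15 ± 0.09 in footprints (adjusted p = 0.30). The mRNA call was lost without rps22a/+ rps22b/+, rps22a (4659), rps28b or rps0b (adjusted p of up to 0.0739) and with gene family means (0.0872). RRB1, the chaperone of Rpl3 and the other chaperone on the list, differed by -0.23 ± 0.08 in mRNA without passing (limma, adjusted p = 0.070).

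SDO1 (YLR022C), the yeast counterpart of the human SBDS protein, works with the GTPase Efl1 to release Tif6 from the cytoplasmic 60S subunit. It had 78.9, 110.5 and 165 RPKM of mRNA as the lowest, median and highest of the RPL strains, against 67.5, 89.5 and 105 RPKM in RPS strains and 94.6 and 111 RPKM in wild type. The highest strain was rpl40a and the lowest rps0b. The classes overlapped, with 12 of 14 RPL strains above the RPS median. The difference was 0.33 ± 0.10 (SE; limma, adjusted p = 0.0371) in mRNA and 0.20 ± 0.12 in footprints (adjusted p = 0.305). The mRNA call was lost in 12 of 25 fits that left out 1 strain (rpl7a, rpl24a, rpl24b, rpl26b, rpl26a rpl26b, rpl40a, rpl40b, rps0b, rps22a (4659), rps22a (4662v), rps28a or rps28b), with adjusted p-values of up to 0.0896, and in voom and with gene family means. TIF6, the substrate of this release, differed by 0.11 ± 0.07 in mRNA (adjusted p = 0.356) and 0.12 ± 0.10 in footprints (adjusted p = 0.535).

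Among the other roles, 9 of the 10 DEAD-box RNA helicases, which unwind rRNA, were below 0, with values from -0.27 (MAK5) to 0.23 (DBP6). The 3 rRNA methyltransferases were at -0.07 (RRP8), -0.24 (NOP2) and -0.26 (SPB1). The 4 GTPases were at -0.13 to -0.19 and the 3 AAA ATPases, which extract factors, at -0.02 to -0.17. The export and cytoplasmic release group held 3 of the 6 positive values of the whole list, SDO1, MRT4 (0.21) and TIF6 (0.11), and the other 5 members of that group were at -0.08 to -0.24. The lowest value of all was that of RRS1, -0.29 ± 0.10 (limma, adjusted p = 0.064).

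**Figure D4:**
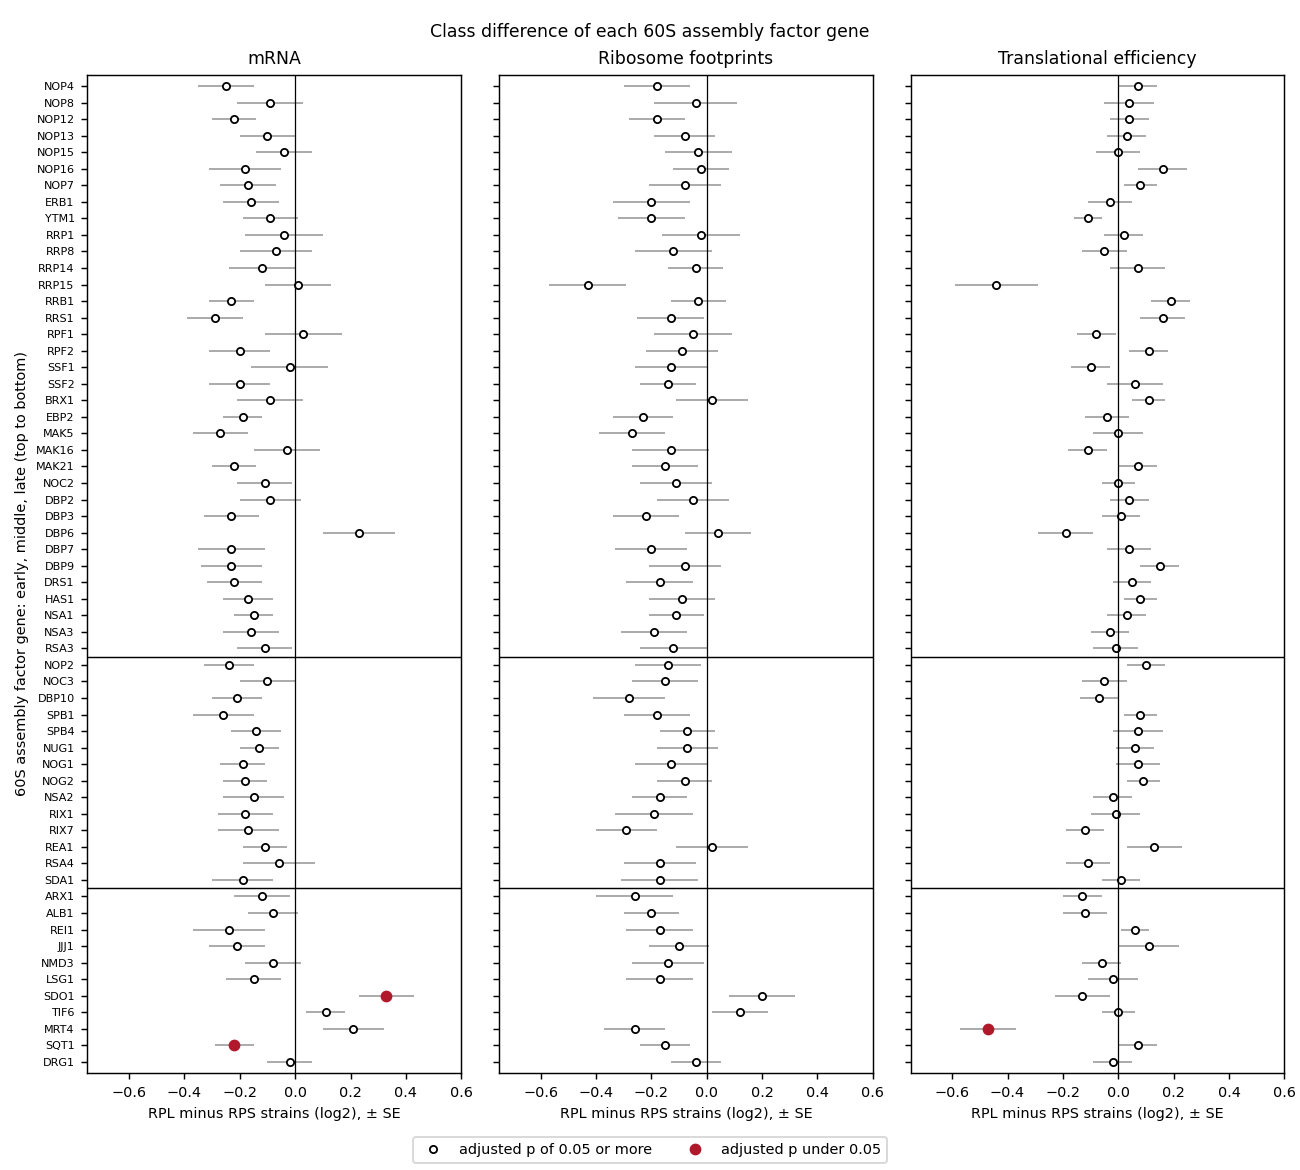
RPL minus RPS difference (log2, horizontal, bars ± SE from limma) of each of the 60 genes (vertical, early at the top to late at the bottom) in mRNA, footprints and translational efficiency. Most mRNA and footprint points lie left of 0, SQT1 at -0.22 and SDO1 at 0.33 pass in mRNA, and MRT4 at -0.47 passes in efficiency.

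How many factors passed turned on single strains. Without the 3 strains that went against their labels, 2 of the 60 passed in mRNA, again SQT1 (-0.22 ± 0.07, limma, adjusted p = 0.0461) and SDO1 (0.37 ± 0.10, adjusted p = 0.0276), where 2.89% of all genes were called lower and 6.52% higher. Without rps25a rps25b, 25 of the 60 passed, 24 lower and SDO1 higher in RPL strains, where 6.31% of all genes were called lower and 10.8% higher. Since this strain had the lowest median level of the factors among the RPS strains, leaving it out lowers RPL against RPS by construction, and the 25 are no support for a difference. The 24 comprised 16 early, 6 middle and 2 late factors. SPB1, which methylates the 25S rRNA, had the lowest value of the 24 at -0.37 ± 0.08, followed by RRS1 (-0.36), DBP7 (-0.35) and MAK5 (-0.34). With all strains SPB1 had 89.6, 114 and 129.5 RPKM as the lowest, median and highest in RPL strains, against 71.8, 153 and 177 RPKM in RPS strains and 111 and 121 RPKM in wild type, its lowest value being that of rps25a rps25b. All 14 RPL strains were below the RPS median of SPB1. Leaving out rps28a, another low RPS strain, gave 6 calls, all lower, where 3.2% of all genes were called lower. That too lowers RPL against RPS by construction, so the 6 are no support for a difference. Leaving out rps22a (4659), rps28b or rps0b, which were high, gave 0, where 7.11%, 8.61% and 6.52% of all genes passed in either direction. Leaving out rps22a (4662v), rps22a/+ rps22b/+, rpl26b, rpl26a rpl26b, rpl24b, rpl40b, rpl40a, rpl24a or rpl7a gave 1, where 6.57 to 9.48% of all genes passed. With single deletions and wild type alone, 9 passed, 8 of them lower (3.71% of all genes lower). This subset also leaves out rps25a rps25b, a double deletion, so these calls are no support for a difference either. With median-of-ratios scaling 8 were lower and 1 higher (5.08% and 6.16% of all genes). With the 11 gene families as units none passed, where 2.92% of all genes did.

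In footprints, 55 of the 60 genes were below 0 in RPL minus RPS, with a median of -0.13 against 0.04 over all 4220 genes, and none passed in limma, where 5.62% of all genes did (1.21% lower and 4.41% higher). There were 6 at an unadjusted p under 0.05, all lower, where 23.5% of all genes reached it, and 2 passed in voom on the recovered reads, both lower (2.87% of all genes lower). The largest difference was that of RRP15 (YPR143W), a nucleolar factor of early particles. Its footprints had 75.0, 96.9 and 143 RPKM as the lowest, median and highest of the RPL strains, against 70.4, 138.5 and 202 RPKM in RPS strains and 82.25 and 96.1 RPKM in wild type. Of the RPL strains, 13 of 14 lay below the RPS median, and rps25a rps25b was the lowest RPS strain. The difference was -0.43 ± 0.14 (limma, adjusted p = 0.068), while its mRNA differed by 0.01 ± 0.12. The highest footprint differences were those of SDO1, TIF6 and DBP6, the last at 0.04 ± 0.12, and none passed. RIX7, the ATPase that extracts Nsa1, and the helicase DBP10 followed at -0.29 ± 0.11 and -0.28 ± 0.13 (limma, adjusted p = 0.114 and 0.176). Without the 3 strains that went against their labels, RRP15 passed (-0.52 ± 0.15, limma, adjusted p = 0.024) and no other factor did, where 2.58% of all genes were called lower. Among RPL strains, rpl26a/+ rpl26b/+ and rpl40a/+ rpl40b/+ had the highest RRP15 footprints, so leaving them out lowers RPL against RPS by construction. Without the strain labelled rpl26a/+ rpl26b/+ alone 1 passed, lower in RPL strains, where 2.77% of all genes were called lower. With single deletions and wild type alone, which also leaves out rps25a rps25b, 7 passed, all lower (4.31% of all genes lower). Without rps25a rps25b 11 passed, all lower (3.98% of all genes lower), which rests on the same choice of the lowest RPS strain as in mRNA.

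In translational efficiency, the RPL minus RPS difference had a median of 0.02 over the list, with 24 genes below 0 and 36 above, against 0.01 over 4197 genes. In limma 1 of the 60 passed, MRT4, and 1.12% of all genes did (1% lower and 0.119% higher in RPL strains). The highest values were those of RRB1 (0.19 ± 0.07), RRS1 (0.16 ± 0.08) and NOP16 (0.16 ± 0.09), and the lowest after MRT4 and RRP15 was that of DBP6 (-0.19 ± 0.10), none of which passed. MRT4 (YKL009W) encodes a relative of the stalk protein P0 that holds its place on the rRNA until the stalk is built. Its mRNA had 219.7, 319.6 and 423.5 RPKM as the lowest, median and highest of the RPL strains, against 196.5, 283 and 307 RPKM in RPS strains and 256 and 302.5 RPKM in wild type. Its footprints had 244, 347 and 442 RPKM in RPL strains, against 267.5, 413 and 546 RPKM in RPS strains and 296 and 354 RPKM in wild type. Its mRNA and footprints thus leaned in opposite directions, by 0.21 ± 0.11 in mRNA (limma, adjusted p = 0.233) and -0.26 ± 0.11 in footprints (adjusted p = 0.155).

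The efficiency of MRT4 was 0.875, 1.09 and 1.64 as the lowest, median and highest of the RPL strains, against 1.21, 1.61 and 1.89 in RPS strains and 1.15 and 1.17 in wild type. The difference was -0.47 ± 0.10 (limma, adjusted p = 0.0214), and 12 of 14 RPL strains lay below the RPS median. The 2 RPL strains that did not were rpl26a/+ rpl26b/+ (1.64) and rpl40a/+ rpl40b/+ (1.62). Both are among the 3 strains that went against their labels, and the part of this in their MRT4 values was not tested. The wild-type libraries lay among the RPL strains and below every RPS strain. Without the 3 strains that went against their labels the difference was -0.55 ± 0.09 (limma, adjusted p = 0.00232, with 1.9% of all genes called lower). RRP15 passed as well at -0.53 ± 0.13 (limma, adjusted p = 0.0269). Among RPL strains, rpl26a/+ rpl26b/+ and rpl40a/+ rpl40b/+ had the highest efficiency of both genes. Leaving them out lowers RPL against RPS by construction, so these values are no further support for a difference. With all strains RRP15 had an efficiency of 0.624, 0.949 and 1.89 as the lowest, median and highest in RPL strains, against 0.834, 1.41 and 1.72 in RPS strains and 0.802 and 1.24 in wild type, with a difference of -0.44 ± 0.15 (limma, adjusted p = 0.165). The call of MRT4 was lost without rps22a/+ rps22b/+, rps22a (4659), rps28b or rps0b, with adjusted p-values of up to 0.0603, and without the replicate block, that is with the libraries of a strain treated as unrelated (adjusted p = 0.351). Without rpl40a/+ rpl40b/+ 2 of the 60 passed, where 2% of all genes did.

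**Figure D5:**
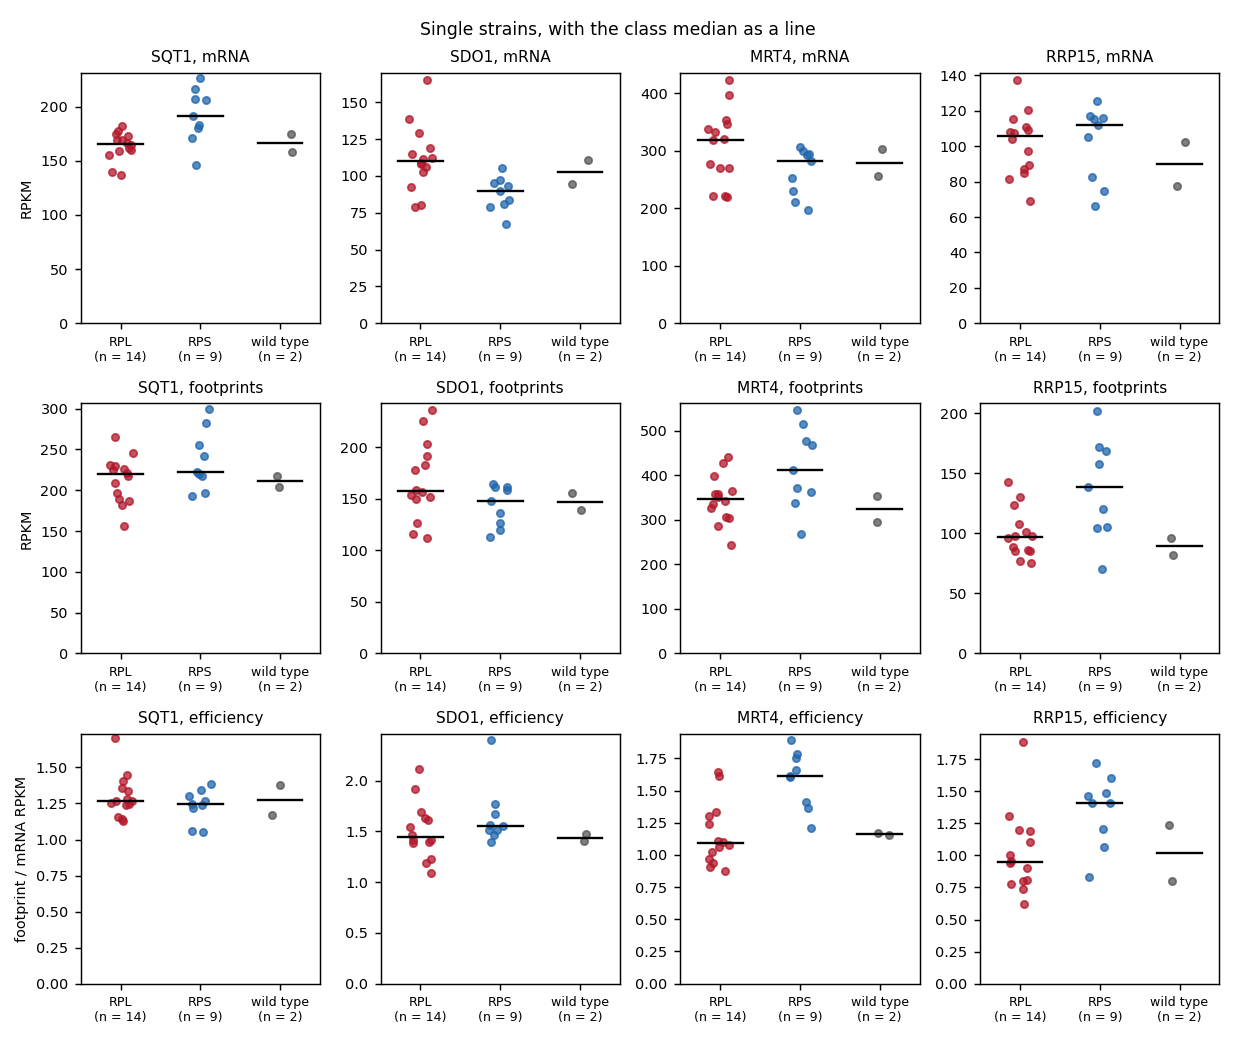
SQT1, SDO1, MRT4 and RRP15 in single strains (points; the line is the class median) of the RPL, RPS and wild-type classes, as mRNA RPKM (top), footprint RPKM (middle) and translational efficiency (bottom), all axes from 0. The RPL points lie mostly below the RPS points for SQT1 mRNA and for MRT4 and RRP15 efficiency, and mostly above them for SDO1 mRNA.

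Set against wild type, no factor passed in either class, nor did any gene of the whole tables (0% in each of the 4 comparisons in limma, and 0 in voom). The count of factors stayed at 0 in footprints of RPS strains against wild type where other settings called genes of the whole table, 0.355% of them without rps25a rps25b and the 3 strains that went against their labels and 0.166% with gene family means. RPL strains had medians of -0.04 for mRNA and 0.03 for footprints over the 60 genes, and no factor reached an unadjusted p of 0.05, which 2.69% and 2.58% of all genes did. RPS strains had medians of 0.11 for mRNA and 0.16 for footprints, with 51 and 55 of the 60 genes above 0. Over all genes the medians were -0.02 and 0.01. At an unadjusted p under 0.05 there was no factor in mRNA (10.2% of all genes) and 1 in footprints, RRP15, which was 0.56 higher in RPS strains than in wild type (9.57% of all genes). Both classes share the same 2 wild-type libraries, which differed from each other over the list by a median of 0.15 for mRNA and 0.12 for footprints.

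Other genes of ribosome production leaned the same way in mRNA of RPL against RPS strains. Over all genes in this fit, 2.9% were called lower and 6.77% higher in RPL strains. Of 29 further 60S factors, 2 were lower and 0 higher (median -0.09): GRC3, a kinase of rRNA processing, by -0.44 ± 0.10, and EFL1, the GTPase partner of Sdo1, by -0.22 ± 0.06 (limma, adjusted p = 0.0049 and 0.0175). EFL1 was thus called lower where SDO1 was called higher. Of 62 factors of the small (40S) subunit, 6 were lower and 0 higher (median -0.13), with RRP12, an export factor, at -0.33, RRP9, a U3 particle protein, at -0.31, and PWP2 and UTP4 of the small subunit processome at -0.28 and -0.27. Of 15 RNA polymerase I genes, 2 were lower and 0 higher (median -0.11), the largest subunits RPA190 and RPA135, both at -0.23. None of these 3 lists had a call in footprints or efficiency, where 5.62% and 1.12% of all genes were called. Without rps25a rps25b, 20 of the 62 small subunit factors were lower in mRNA, where 6.31% of all genes were lower. So were 5 of the 29 further 60S factors and 3 of the 15 polymerase genes. In mRNA that strain was also the lowest RPS strain for small subunit factors (-0.43) and further 60S factors (-0.33). Leaving it out therefore lowers RPL against RPS by construction in the small subunit factors and the further 60S factors. Its level of the polymerase genes is not given here. None of these counts is support for a difference. In each strain the 60 genes and the small subunit factors lay close together, at -0.54 and -0.43 for mRNA in rps25a rps25b, -0.43 and -0.44 in rpl41a and 0.37 and 0.32 in rps0b. The differences between these lists were not tested.

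In the R64 gene table, 8 of the 60 genes had a member of these 3 lists as the next protein-coding gene, and none had another of the 60. GRC3 and RIX7 were convergent, as were RRP15 and NOC4. NSA2 and LCP5, and RRP3 and SSF1, were divergent, and DBP8 and NMD3, UTP9 and RIX1, RSA3 and UTP13, and RRS1 and UAF30 lay in tandem. Neither the labels nor the files say whether reads were counted by strand. REI1 overlaps SLM6 and NOG2 holds the small nucleolar RNA gene SNR191, so reads of these could not be told apart and the values of both factors are uncertain. SSF1 (YHR066W) and SSF2 (YDR312W) are near-identical copies of a Brix protein of early particles, and how reads shared by both were counted is not given in the sources used here. As deposited, SSF1 had a median of 1.94 times the mRNA of SSF2 (1.27 to 2.54 over the strains) and 1.81 times its footprints (1.42 to 2.32). Their RPL minus RPS differences in mRNA were -0.02 ± 0.14 and -0.20 ± 0.11, and neither passed.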

How the data were processed

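The authors deposited 1 table of ribosome footprints and 1 of mRNA for 25 strains, 50 libraries in all, with columns headed RPKM, per the file headers. Per the submitters' processing notes, the tools included CASAVA, bcl2fastq 2.17 and Bowtie2; aligner settings, build and strand handling are not stated there. The deposited values are a signal that is not RPKM: they were whole reads over the library total, multiplied rather than divided by the coding length less 60 nt. This held within 0.03 reads in every library for 87.6% of 5812 genes with an R64 length; for 1125 genes the length was taken from the values, and 113 genes were left out. Of the 60 factors, 51 had an R64 length and 9 a length from the values. RPKM was recomputed from the recovered reads; the 1 unnamed total line per table was left out.

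Classes were compared with limma 3.58.1 in R 4.3.3 (trend, two-sided, Benjamini-Hochberg over all genes tested) on log2(RPKM + 1), over genes averaging 10 RPKM or more, all 25 strains in one fit. A difference on this scale understates the change of low genes. Efficiency was the footprint minus the mRNA log2 value of a strain, which keeps the strain as a block. The labels give both libraries of a strain the same strain number. Over 4197 genes, the deviations of the 2 libraries from their class means had a correlation of 0.04 in rpl26a/+ rpl26b/+ and of 0.29 to 0.84 in the other 24 strains. The footprint library of the same strain was the best match in 23 of 25 strains. The exceptions were rpl26a/+ rpl26b/+ and rpl41b, the latter with a correlation of 0.65 between its own libraries. The wild-type libraries differed by more than sampling of reads allows (chi-square of 3.31 per degree of freedom for mRNA and 12.3 for footprints) and counted as 2. The p-values rest on strain-to-strain spread, with related strains counting as independent.

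The factors, their grouping and the other lists were chosen with earlier results of these data known. Named were factors past a test, the 3 highest and 3 lowest per RPL minus RPS comparison and in mean efficiency, the highest and lowest mRNA level per stage, SSF1 and SSF2, and up to 4 called genes per other list; the further names were chosen after their values were seen. Alternatives were other pseudocounts, filters, scalings, voom, fewer strains, gene family means and no block. The fit without the 3 strains that went against their labels was added after seeing the data.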

Additional observations from a re-analysis of the deposited data

Results flagged for a closer look

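Single strains far from the rest of their class were looked for in 78 groups of values. The 3 found are no more than the 1 in 20 that chance gives. SPB4 mRNA in rps25a rps25b was 45.9 RPKM, below 70.0 to 88.9 RPKM in the other RPS strains. DBP2 footprints in rps25a rps25b were 198 RPKM, below 342 to 484 RPKM in the other RPS strains. The translational efficiency of SDO1 in rps0b was 2.4, above 1.4 to 1.77 in the other RPS strains.

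The RPL minus RPS difference of MRT4 in footprints was lower than that in mRNA by 0.47 on the log2 scale (-0.47 ± 0.10, limma, adjusted p = 0.0214, 12 of 14 RPL strains below the RPS median). This is the efficiency result given above, where 1.12% of all genes passed. The call was lost in 4 of 25 fits that left out a strain, and without the replicate block.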

How the results depend on the processing

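Counts of factors called between RPL and RPS strains moved with the processing; the cause was not tested. The share of all genes called in the same fit, in either direction, follows each count. For mRNA, 2 (9.67%) became 5 with a minimum of 50 RPKM (18.2%), 9 with median-of-ratios scaling (11.2%), 10 with quantile normalization (12%), 9 with voom (12.1%), 1 without the strain labelled rps22a (4662v) (9.48%), 9 with single deletions alone (10.5%) and 0 with gene family means (2.92%). It became 25 without rps25a rps25b (17.1%) and 26 without it and the 3 strains that went against their labels (17.9%). The count was 2 without those 3 alone (9.41%). The strain rps25a rps25b was left out for its own low factor levels, and the fits with single deletions alone leave it out as well. For footprints, 0 (5.62%) became 1 with median-of-ratios scaling (4.91%), quantile normalization (5.69%), without the strain labelled rpl26a/+ rpl26b/+ (11%) or without the 3 strains (11.1%), 2 with voom (6.09%), 7 with single deletions alone (17.4%), 11 without rps25a rps25b (14.4%) and 23 without it and the 3 strains (23.4%). For efficiency, 1 (1.12%) became 2 without the 3 strains (2.54%), without them and rps25a rps25b (2.59%) or with single deletions alone (2.45%), and 0 with no replicate block (0.0715%). Leaving out each of the 25 strains in turn gave 0 to 25 calls for mRNA (6.52 to 17.1% of all genes), 0 to 11 for footprints (1.35 to 14.4%) and 0 to 2 for efficiency (0.262 to 2.03%), and medians of -0.22 to -0.12, -0.22 to -0.08 and -0.01 to 0.04. SQT1 passed in 21, SDO1 in 13 and MRT4 in 21 of these 25 fits. No direction reversed among the results with a call. With 41 to 6585 mRNA reads per factor and library, counting error limits the lowest genes.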
